A study of Mus musculus with 6 samples.

Results

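Ogt encodes O-GlcNAc transferase, and its signal was lower after cadmium in NIT-1 cells. Ogt was chosen by its difference between cadmium and control arrays, as 1 of 18972 genes measured. That difference is therefore described below without a test. The rule took transcript clusters with a single gene name and the brightest cluster for each gene, and Ogt had 1 cluster, on the X chromosome. NIT-1 is an established mouse line of pancreatic beta cells, derived from insulinomas of mice that carry a viral oncogene under an insulin promoter. The control group was kept in culture medium with fetal bovine serum, penicillin and streptomycin, without cadmium, for 24 h. The cadmium group was kept for the same 24 h in that medium with 4 µmol/L CdSO4, after both groups had spent 24 h in 6-well plates. Each group had 3 arrays of total RNA, which the titles call biological replicates, so a p-value reflects only how these cultures varied. In bulk RNA, fewer cells that hold a transcript and less of it per cell cannot be told apart.

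Values are log2 signals, a scale inferred from their range, and a change is the mean of the cadmium arrays minus the mean of the control arrays. Means are given ± SD with n = 3 per group, and SE marks the standard error of a change. Array medians over all genes lay between 4.13 and 4.18 and the cadmium arrays all had higher medians than the control arrays. The background bound is the 95th percentile of the negative control probes of an array, which averaged 6.18. Signals below it may be compressed, so no fold is given where both group means lay there. Of the 12 beta cell markers listed, 5 were measured as single genes and 0 had both group means above that bound. The insulin gene Ins2, for example, had means of 5.27 without cadmium and 5.29 with it. The markers of other islet cells and of exocrine pancreas, 2 and 3 measured, were also below it. Of 2 stromal and immune markers, the collagen gene Col3a1 was above it, at 9.07 in control and 8.06 in cadmium arrays, and Ptprc was not.

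O-GlcNAc is a single N-acetylglucosamine that Ogt attaches to serine and threonine residues of nuclear, cytosolic and mitochondrial proteins. Ogt is the only enzyme known to do this inside mammalian cells, and Oga is the enzyme that removes the sugar. The donor, UDP-GlcNAc, is made by the hexosamine pathway from glucose, glutamine and acetyl-CoA, so the modification is linked with nutrient supply. Pancreatic beta cells are known for a high level of Ogt. Transcripts of Ogt and Oga can retain an intron, which is one way in which cells adjust both enzymes.

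The stretch before the first RefSeq start of Ogt is shown because it is the proximal promoter of the gene described here. It is 210 bases long on the plus strand of chrX:101639801-101640010 in assembly GRCm38.p6, and 49.5% of its bases are G or C. Which build the array probes were designed on is not given in the sources.

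Ogt: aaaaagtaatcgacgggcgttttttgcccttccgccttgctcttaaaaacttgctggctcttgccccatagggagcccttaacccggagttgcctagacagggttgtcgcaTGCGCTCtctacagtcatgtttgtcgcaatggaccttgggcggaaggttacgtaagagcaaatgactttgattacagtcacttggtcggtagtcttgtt

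The capitals mark its 1 match to the core of the metal response element, which the zinc- and cadmium-responsive factor Mtf1 binds. The letters searched on both strands were TGCACNC and TGCGCNC, which do not overlap each other. Among the first 210 bases of all 32851 RefSeq promoter windows, 17.8% held such a match. The core of the antioxidant response element, TGACNNNGC, had 0 matches in the Ogt stretch and occurred in 8.2% of the windows. The heat shock element pairs GAANNTTC and TTCNNGAA had 0 matches and occurred in 10.7%. These are matches of letters and not binding sites.

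On the control arrays the Ogt signal was 8.65 in replicate 1, 8.78 in replicate 2 and 8.65 in replicate 3. On the cadmium arrays it was 7.99, 7.37 and 7.46 in replicates 1, 2 and 3. The groups did not overlap: every cadmium array was lower than every control array, and cadmium replicate 1 lay nearest to the controls. The smallest difference between a control and a cadmium array was 0.65 and the largest 1.40. The means were 8.69 ± 0.07 in control and 7.61 ± 0.34 in cadmium arrays, a change of -1.09, or a 2.12-fold lower signal. Ogt exceeded the background bound on every array, by 2.45 to 2.56 in control and by 1.26 to 1.74 in cadmium arrays. No other gene had the values of Ogt on all 6 arrays.

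**Figure D1:**
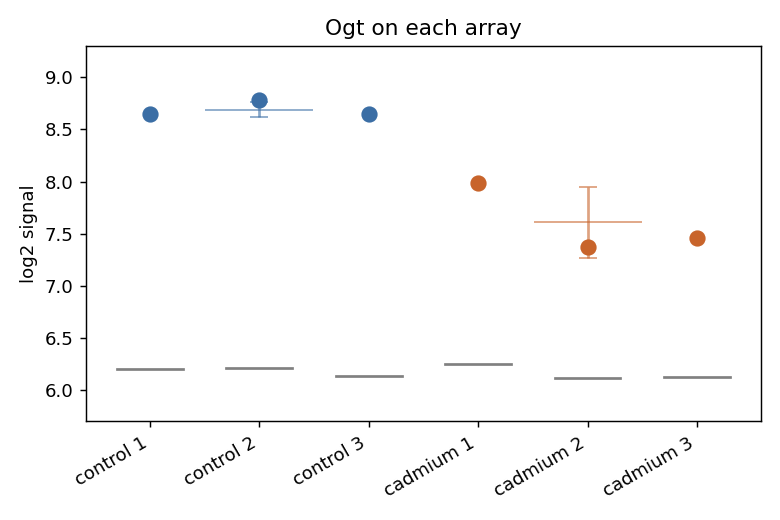
Ogt log2 signal (vertical axis) on each of the 6 arrays, control in blue and cadmium in orange. The wide marks with bars are group means ± SD (n = 3), 8.69 ± 0.07 and 7.61 ± 0.34, and the grey lines show the background bound of each array, between 6.12 and 6.25.

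The spread of Ogt was wider among the cadmium arrays. Its cadmium SD of 0.34 was above that of 95.2% of the 500 genes nearest to it in mean signal, whose median was 0.12. Its control SD of 0.07 was above that of 28% of them, also with a median of 0.12. Cadmium replicate 1 was the array that set this spread. In the 1085 other genes called lower with cadmium, the same array was the highest of the cadmium arrays in 51.9%. In all genes other than Ogt it was the highest in 37.6%, and in the 20 of the 500 nearest genes with a decrease of 0.5 or more it was the highest in 7. Among the 1227 genes called higher, it was the lowest of the cadmium arrays in 55.3%, and the matching share over all genes was not computed. Without cadmium replicate 1 the change of Ogt was -1.28, and without cadmium replicate 2, the lowest array, it was -0.97. What sets that array apart was not tested.

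Among genes of similar level, Ogt had the second-largest decrease. Its mean over all arrays was 8.15, and the 500 nearest genes had means from 7.45 to 9.11. Counted from the largest decrease, Ogt ranked 2 of 501 genes, and 2 of 166 when the comparison was held to protein-coding genes. The median change of the window was 0.07, and its 5th and 95th percentiles were -0.43 and 1.03. These values are over all 500 genes, of which 165 are protein-coding, and were not computed for protein-coding genes alone. Decreases of 1 or more were seen in 3 of the 500 genes, all protein-coding, and increases of 1 or more in 30. Apart from Mt2, at 2.15, the genes with such increases are not protein-coding. These ranks describe the contrast by which Ogt was chosen and carry no test.

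The gene just inside Ogt in that order was Pbx3, a homeobox factor, at 8.17 ± 0.19 in control and 6.95 ± 0.08 in cadmium arrays. Just behind Ogt came Adam10, a membrane metalloprotease, at 9.01 ± 0.43 and 7.95 ± 0.11. Next were Col3a1, with a change of -1.01, and Tnc, encoding the matrix protein tenascin, at 8.05 ± 0.03 and 7.05 ± 0.06. Adam10 differed from Ogt in its spread, which came from the control arrays at 9.22, 9.29 and 8.51. Over all 18972 genes Ogt had rank 17 from the largest decrease. Among the 2000 genes whose means were above the bound in both groups it had rank 6. The rank in the window was 6 without cadmium replicate 2 and 6 without cadmium replicate 3.

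**Figure D2:**
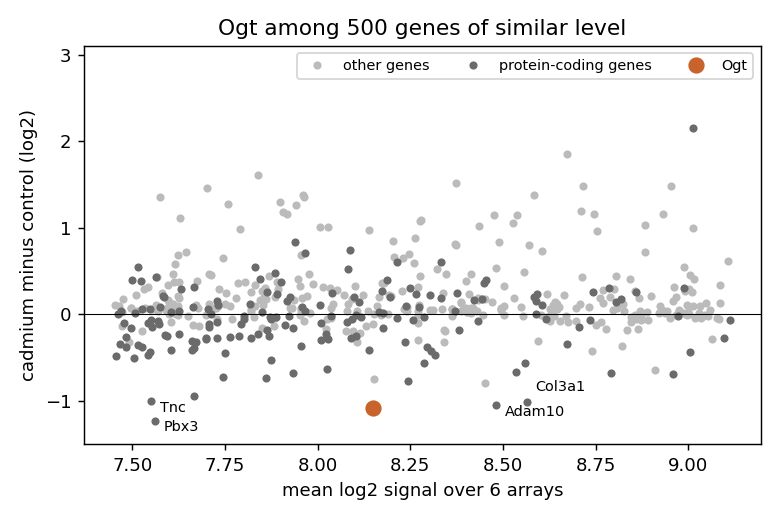
Change with cadmium (log2, vertical axis) against mean log2 signal over 6 arrays (horizontal axis) for Ogt, in orange, and the 500 genes nearest in mean signal, with protein-coding genes in dark grey. Ogt lies at -1.09, and Pbx3 alone has a larger decrease. The 5th percentile over all 500 genes, protein-coding or not, is -0.43.

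The comparison of the other genes around O-GlcNAc asks whether the sugar supply, partners and carriers of Ogt also differed with cadmium. Of 128 genes listed other than Ogt, 66 were measured as single genes. With limma over all 18972 genes and an adjusted p under 0.05, 17 of the 66 were lower and 2 higher with cadmium. Over all genes 5.72% were called lower and 6.47% higher, that is 1086 and 1227 genes. With each array centred on its median the counts over all genes were 1449 lower and 887 higher, and those of the 66 were 19 and 2. Over all 11678 protein-coding genes the shares were 8.31% and 4.96%. Of the listed genes 51 had a mean at or above the median gene, and 16 of these were called lower and 2 higher. For protein-coding genes at that level or above the shares were 13.0% lower and 6.45% higher. The lists were chosen with earlier results of these data known, so their counts are a description and were not tested against these shares. The median change of the listed genes was -0.097, against 0.044 over all genes and 0.007 in protein-coding genes at or above the median level. Their changes ran from -0.77 to 0.41, so none was as large as the decrease of Ogt, a difference that was not tested. Both group means exceeded the background bound in 5 of the 19 genes, 1 mean did in 3 genes, and neither did in 11. Of the 19 genes, 13 stayed called in all of the 6 fits that left out 1 array, 11 of them lower.

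**Figure D3:**
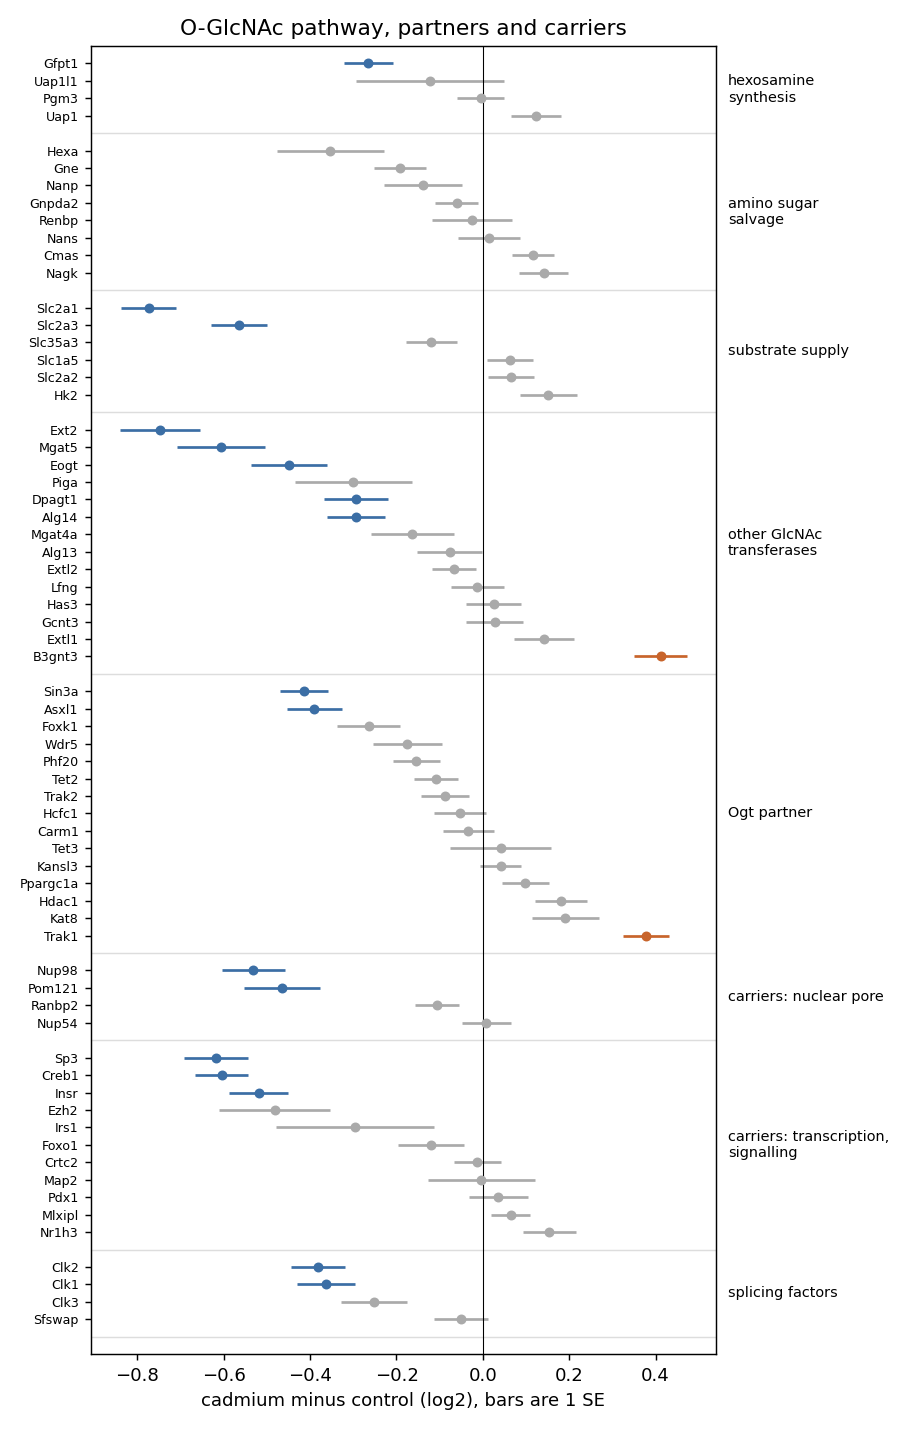
Change with cadmium (log2, horizontal axis) ± 1 SE from limma for the 66 listed genes, grouped by role. Blue marks genes called lower, orange genes called higher and grey genes not called at an adjusted p of 0.05; 17 are blue and 2 orange.

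In the hexosamine pathway Gfpt1 fell, and the other 3 measured genes did not pass the test. Gfpt1, the first and rate-limiting enzyme of the pathway, was at 5.88, 5.87 and 5.87 on the control arrays and at 5.69, 5.54 and 5.59 on the cadmium arrays. The groups did not overlap, the change was -0.26 ± 0.06 (SE; limma adjusted p = 0.025), and both means lay below the background bound. This call was lost without any 1 of the arrays except cadmium replicate 1, with an adjusted p of up to 0.086. Pgm3, a sugar phosphate mutase of the pathway, had 4.34 ± 0.01 in control and 4.33 ± 0.07 in cadmium arrays. Uap1, which makes UDP-GlcNAc in the last step, was at 3.96 ± 0.06 and 4.09 ± 0.06. Its relative Uap1l1 was at 6.50 ± 0.25 and 6.38 ± 0.29. Gfpt2 and Gnpnat1 of this list, and Oga, were not analysed here.

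In the list of substrate supply (glucose, glutamine and the UDP-GlcNAc carrier Slc35a3) 2 of 6 measured genes fell and 0 rose. The 2 that fell are glucose transporters, and 4 of the 6 genes were at or above the median level. In protein-coding genes at that level or above 13.0% fell and 6.45% rose, and in all protein-coding genes 8.31% and 4.96%. Slc2a1, the ubiquitous glucose transporter, was at 8.53, 8.73 and 8.63 on the control arrays and at 7.87, 7.86 and 7.84 on the cadmium arrays. It was 1.71-fold lower with cadmium, and the cadmium arrays lay closer together than those of Ogt. Slc2a3, another glucose transporter, was at 5.45, 5.56 and 5.63 in control and 4.93, 5.04 and 4.98 in cadmium arrays, below the bound in both groups. Its change was -0.57 ± 0.06 (SE; limma adjusted p = 0.0024). Hk2, a hexokinase, was at 6.61 ± 0.09 and 6.77 ± 0.06, and Slc35a3, which carries UDP-GlcNAc into the Golgi, at 3.45 ± 0.08 and 3.34 ± 0.04. Neither passed the test, at adjusted p of 0.181 and 0.235 in limma.

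Of 8 measured genes of amino sugar salvage and its side branches, limma called 0. An unadjusted limma p under 0.05 was seen in 4, and 1 was called with array weights. Over all 11678 protein-coding genes these counts were 3543 and 2228, and over the 6631 at or above the median level 2638 and 1819. The list was not tested as a set. Named here are Gne, the entry enzyme of sialic acid synthesis, and Hexa, a lysosomal hexosaminidase. Nagk, which phosphorylates free N-acetylglucosamine, and Cmas, which activates sialic acid, complete the 4. Hexa was at 7.83, 7.86 and 7.39 in control and 7.39, 7.35 and 7.28 in cadmium arrays. Its groups overlapped through control replicate 3, and its adjusted p was 0.110 in limma. Gne was at 4.97 ± 0.09 and 4.78 ± 0.04, Nagk at 5.86 ± 0.06 and 6.00 ± 0.06, and Cmas at 5.97 ± 0.03 and 6.09 ± 0.03.

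Enzymes that place N-acetylglucosamine elsewhere than Ogt does included 5 genes that fell and 1 that rose, of 14 measured. Of the 14, 10 were at or above the median level. The shares were 13.0% and 6.45% in protein-coding genes at that level or above, and 8.31% and 4.96% in all protein-coding genes. The list was not tested as a set. Ext2, a subunit of the heparan sulphate polymerase, was at 6.18, 6.30 and 6.23 in control and 5.29, 5.59 and 5.59 in cadmium arrays. Its change was -0.75 ± 0.09 (SE; limma adjusted p = 0.0033), at least 1.05-fold lower when the cadmium arrays are set to their background bound. Mgat5, which branches N-glycans, fell from 6.05 ± 0.18 to 5.44 ± 0.12. Eogt, which adds O-GlcNAc to extracellular domains in the endoplasmic reticulum, was at 5.60, 5.68 and 5.36 in control and 5.15, 5.08 and 5.05 in cadmium arrays. Its change was -0.45 ± 0.09 (SE; limma adjusted p = 0.019), and both Mgat5 and Eogt were below the bound in both groups. B3gnt3, which extends O-glycans, rose from 5.98 ± 0.07 to 6.39 ± 0.07. Its control mean lay below the bound, and it was at least 1.15-fold higher when the control arrays are set to their bound.

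The other genes of that list that fell, named after their values were seen, were Dpagt1 and Alg14, which act in the first steps of the lipid-linked N-glycan precursor. Dpagt1 had a change of -0.29 ± 0.07 (SE; limma adjusted p = 0.045) and Alg14 one of -0.29 ± 0.07 (SE; limma adjusted p = 0.033), both below the bound. Eogt and Dpagt1 lost their calls without control replicate 1, control replicate 2, cadmium replicate 2 or cadmium replicate 3, with adjusted p of up to 0.074 and 0.142. After quantile normalization Dpagt1 also lost its call, at a limma adjusted p of 0.068, and Eogt had 0.022. Alg14 lost its call without any 1 array except cadmium replicate 2, with an adjusted p of up to 0.098.

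In the list of proteins known to bind Ogt, which also holds members of the NSL complex, 2 of 15 measured genes fell and 1 rose. The share that fell, 13.3%, is over all 15 genes, of which 13 were at or above the median level. Among protein-coding genes 13.0% fell at or above the median level and 8.31% fell at any level. Sin3a, the scaffold of a co-repressor that recruits Ogt to promoters, was at 5.27, 5.38 and 5.39 in control and 4.95, 4.95 and 4.91 in cadmium arrays. Its change was -0.41 ± 0.05 (SE; limma adjusted p = 0.0044). Asxl1, a cofactor of the deubiquitinase Bap1, fell from 5.89 ± 0.06 to 5.50 ± 0.09. Trak1, an adaptor of mitochondrial transport that Ogt modifies, was at 5.84, 5.73 and 5.75 in control and 6.17, 6.17 and 6.12 in cadmium arrays. It rose by 0.38 ± 0.05 (SE; limma adjusted p = 0.0054), and these 3 genes were below the bound in both groups. Foxk1, a forkhead factor, was at 6.31 ± 0.12 and 6.05 ± 0.06 (limma adjusted p = 0.060). Hcfc1, which in human cells Ogt both modifies and cleaves, was at 7.83 ± 0.08 and 7.78 ± 0.05 and did not pass (limma adjusted p = 0.604). It was named after its values were seen.

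Of 4 measured nucleoporin genes, whose proteins are among the most heavily O-GlcNAc-modified, 2 fell and 0 rose. In protein-coding genes at or above the median level 13.0% fell and 6.45% rose, and 4 genes are too few to compare with those shares. Nup98 was at 6.80, 6.82 and 6.97 in control and 6.44, 6.28 and 6.27 in cadmium arrays. It was 1.45-fold lower with cadmium (limma adjusted p = 0.0051), and both groups were above the bound. Pom121, a membrane-anchored pore protein, was 1.38-fold lower, from 6.81 ± 0.16 to 6.35 ± 0.07, and lost its call without control replicate 1, control replicate 2 or cadmium replicate 3. Ranbp2 was at 6.56 ± 0.04 and 6.45 ± 0.04, and Nup54 at 4.68 ± 0.06 and 4.69 ± 0.05, and neither passed.

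Among transcription and signalling proteins known to carry O-GlcNAc, 3 of 11 measured genes fell and 0 rose. Of the 11, 9 were at or above the median level. Protein-coding genes at that level or above had shares of 13.0% and 6.45%, and all protein-coding genes 8.31% and 4.96%. This list was not tested as a set. Creb1, a factor that responds to cyclic AMP, was at 7.41, 7.49 and 7.42 in control and 6.75, 6.82 and 6.93 in cadmium arrays. It was 1.52-fold lower (limma adjusted p = 0.0018). Sp3, a relative of Sp1, was at 6.89, 6.97 and 7.09 in control and 6.26, 6.40 and 6.45 in cadmium arrays, 1.53-fold lower. Insr, the insulin receptor, fell from 5.56 ± 0.08 to 5.05 ± 0.09, below the bound. Ezh2, a histone methyltransferase, was at 6.62 ± 0.10 and 6.14 ± 0.26 and did not pass (limma adjusted p = 0.054).

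Of the 4 measured genes linked with the splicing of retained introns 2 fell and 0 rose. Here too 4 genes are too few to set against the 13.0% and 6.45% of protein-coding genes at or above the median level. Clk2, a kinase of splicing factors, was at 6.29, 6.36 and 6.26 in control and 6.01, 5.85 and 5.90 in cadmium arrays (limma adjusted p = 0.0094). Its cadmium mean lay below the bound, and it was at least 1.10-fold lower when the cadmium arrays are set to their bound. Its relative Clk1 was at 3.81, 3.89 and 4.03 in control and 3.52, 3.54 and 3.58 in cadmium arrays, below the bound in both groups, and lost its call without control replicate 2 or cadmium replicate 2. Clk3 was at 7.72 ± 0.10 and 7.47 ± 0.10, and Sfswap, a splicing regulator known in human cells to act on the retained intron of the Ogt transcript, at 6.83 ± 0.06 and 6.78 ± 0.07. Neither passed, at limma adjusted p of 0.077 and 0.630. The deposited values are 1 per transcript cluster, so introns and isoforms of Ogt were not analysed here.

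Genes with a profile like that of Ogt were sought in 6519 genes whose mean was no lower than the median gene. Likeness was the root mean square distance over the 6 arrays between profiles centred on their own means, so it weighs size and shape. The profile of Ogt had a root mean square of 0.578 around its own mean, and 10 genes lay within 0.2 of it. The nearest was Zfhx4, a zinc finger homeobox gene, at a distance of 0.146. Its arrays read 6.39, 6.61 and 6.51 in control and 5.67, 5.43 and 5.51 with cadmium. Epha4, an ephrin receptor, followed at 0.148 and Kdm3a, a histone demethylase, at 0.161. The next were Casd1, which acetylates sialic acid, at 0.173, Unc5c, a netrin receptor, at 0.175 and Lgr4, a receptor for R-spondins, at 0.175. Fgf16, a growth factor that like Ogt is X-linked, was at 0.187, and Adgra3, an adhesion receptor, at 0.189. The next gene in the order was at 0.192. Of these 8 genes 1, Adgra3, had both group means above the bound, at 8.09 ± 0.26 and 6.77 ± 0.22. The distances of the other like genes may be affected by compression.

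The mirrored profile of Ogt, with the sign of each centred value turned, lay at smaller distances from its nearest genes among the same compared genes. Of the 4 genes named, Gclc had both group means above the bound, so the distances of the other 3 may be affected by compression. Tagln, an actin-binding protein, lay at a distance of 0.090, with 4.46, 4.48 and 4.71 in control and 5.24, 5.80 and 5.63 in cadmium arrays. Jun, a stress-responsive transcription factor, lay at 0.098 and read 5.62, 6.35 and 6.28 on the cadmium arrays. Gclc, an enzyme of glutathione synthesis, lay at 0.105 with means of 6.85 ± 0.02 and 7.84 ± 0.20. Abhd5, a coactivator of lipolysis, lay at 0.121. In each of these 4 genes cadmium replicate 1 was the cadmium array nearest to the controls, as in Ogt. All points share the same 6 arrays, and the genes were picked for their values, so no test is given.

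**Figure D4:**
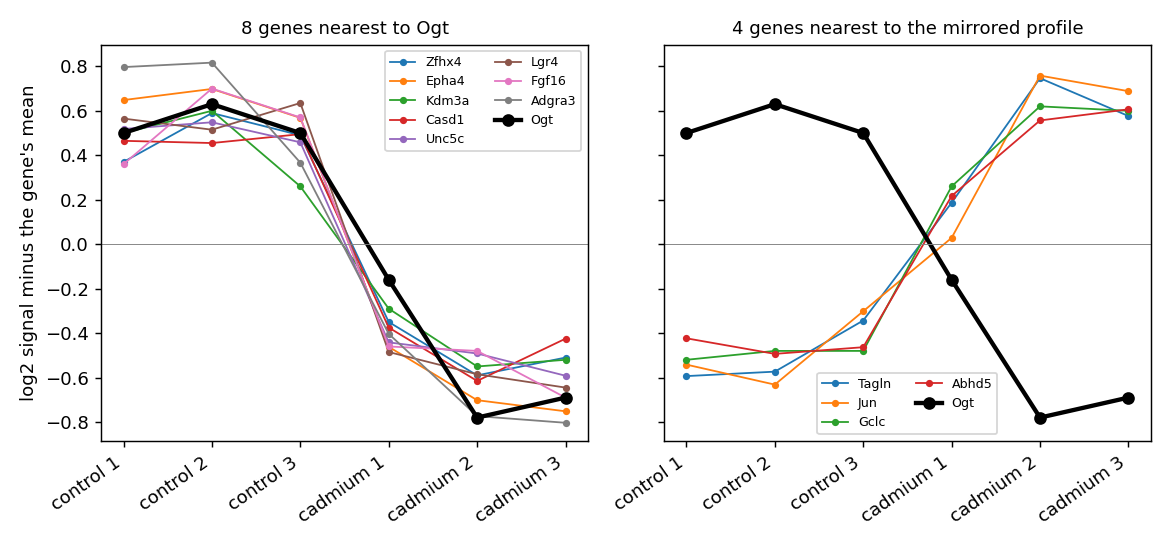
Log2 signal minus the gene's own mean (vertical axis) on each of the 6 arrays for Ogt, in black, with the 8 genes nearest to it on the left and the 4 genes nearest to its mirrored profile on the right. The like genes lie within a distance of 0.189 and the mirrored genes within 0.121.

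Of the 10 nearest measured neighbours of Ogt on the X chromosome 1 passed the test. Their changes were not tested against that of Ogt, which was chosen for its size. The 5 measured protein-coding genes on each side, in the order of RefSeq on GRCm38.p6, were compared with the same fit. Among these genes 1 was called lower and 0 higher by limma, 2 had an unadjusted p under 0.05, and their median change was 0.011. Over all 11678 protein-coding genes 8.31% were called lower and 4.96% higher, and 3543 had an unadjusted p under 0.05. Taf1, the neighbour before Ogt and a subunit of the general factor TFIID, was at 6.13, 6.18 and 6.17 in control and 6.01, 6.21 and 6.21 in cadmium arrays. Cxcr3, the neighbour after it and a chemokine receptor, was at 3.87 ± 0.03 and 3.95 ± 0.06. The gene called lower was Itgb1bp2, encoding the muscle chaperone melusin, at 4.15 ± 0.08 and 3.77 ± 0.09 (limma adjusted p = 0.015). It was below the bound, and its call was lost when control replicate 2 or cadmium replicate 2 was left out (limma adjusted p = 0.058 and 0.054).

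Zmym3, a zinc finger gene, had a change of -0.22 ± 0.06 (SE) and did not pass (limma adjusted p = 0.059). The changes of the remaining neighbours, Gjb1, Nono, Gm4779, 8030474K03Rik, Nhsl2 and Rtl5, lay between -0.03 and 0.11. All 10 neighbours had both group means below the background bound, where changes may be compressed, and Ogt did not. Of 1859 other X-linked genes measured, 83 were called lower and 96 higher, or 4.46% and 5.16%, beside 5.72% and 6.47% of all genes. Among the 287 X-linked protein-coding genes at or above the median level 53 were lower, or 18.5%, and 15 higher, or 5.23%. The shares in all protein-coding genes at or above that level were 13.0% and 6.45%, and the difference was not tested. Among all 1859, a decrease at least as large as that of Ogt was seen in Fgf16, at -1.09, and in the microRNA gene Mir505, at -1.14.

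**Figure D5:**
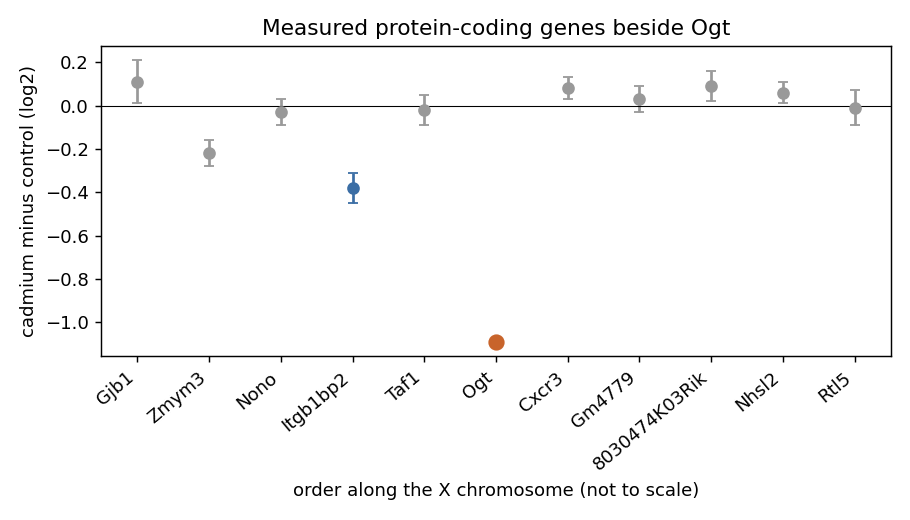
Change with cadmium (log2, vertical axis) for Ogt, in orange and without an error bar since it was not tested, and the 5 measured protein-coding genes on each side of it in chromosome order, with bars of 1 SE from limma. Itgb1bp2, in blue, is the gene called lower at -0.38, and the others range from -0.22 to 0.11.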

How the data were processed

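The authors deposited 1 table of log2 signals, with 46478 rows of which 39746 are transcript clusters, from arrays hybridised with biotin-labelled total RNA per the labels. The log2 base, background correction, normalization and software are not stated in those sources, and the values were used as deposited. The number of columns of values with no sample was 0. Clusters took gene names from the platform annotation, updated through RefSeq GRCm38.p6: 19205 had 1 gene, 940 had several and were left out, and the brightest stood for each of 18972 genes.

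Sample titles gave the group and replicate number of each array. The test was limma 3.58.1 under R 4.3.3, with lmFit, eBayes and a single term for the group, two-sided, with Benjamini-Hochberg adjustment over all genes and a threshold of 0.05. Ogt and the 9 gene lists were chosen with earlier results of these data known. The text names all hexosamine genes, up to 4 members of each other list with the lowest adjusted p, the 8 most like and 4 most mirrored profiles, 5 neighbours on each side, and up to 3 genes on each side in rank. Dpagt1, Alg14, Hcfc1 and Mir128-1 were named outside this rule. Predicted genes, small RNAs, pseudogenes and olfactory and vomeronasal receptors were left out of the profiles. Folds where 1 group mean lay below the bound set each array of that group to at least its own bound. The fit was tested on simulated data. The number of arrays limits the precision. Figures were drawn with matplotlib 3.10.9.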

Additional observations from a re-analysis of the deposited data

How the results depend on the processing

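The change of Ogt kept its direction in every alternative run, from -1.28 to -0.97 with 1 array left out, and was -1.13 with arrays centred and -1.21 after quantile normalization. Its rank was 1 among the 200 nearest genes, 5 among the 1000 nearest, 3 after quantile normalization and 2 to 6 with 1 array left out. Calls over all genes numbered 2313, and 1388 with a replicate block, 868 at an adjusted p under 0.01 and 1142 to 2361 with 1 array left out (lowest without control replicate 2). The calls among the 66 listed genes numbered 19, and 16 with the replicate block, 12 at an adjusted p under 0.01 and 13 to 20 with 1 array left out. The single call in the hexosamine list became 0 with the replicate block and at an adjusted p under 0.01, and ranged from 0 to 1 with 1 array left out. The calls among partners, 3, became 5 with array weights and ranged from 3 to 4 with 1 array left out. The single call among the neighbours became 2 with arrays centred, 2 with a trended and robust variance and 2 with array weights. It became 0 with the replicate block and at an adjusted p under 0.01, and 0 to 1 with 1 array left out, alternatives chosen after seeing the data. Of the 8 most like genes 0 were among the first 8 by Pearson correlation, which ignores size, and 4 to 7 were kept with 1 array left out. Causes were not tested, except that 0.01 is stricter by construction. Correlations over genes of deviations from the group means were -0.108, 0.057 and -0.108 between same-numbered arrays. Between arrays with different numbers they ran from -0.106 to 0.163. With 3 arrays per group these values cannot decide whether the numbers pair the arrays.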

Other observations

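Among all genes, without the exclusions of the naming rule, the profile nearest to Ogt was that of the microRNA gene Mir128-1, at a distance of 0.086, chosen here after its values were seen. Its signal was 6.38, 6.46 and 6.52 on the control arrays and 5.62, 5.09 and 5.07 on the cadmium arrays. The groups did not overlap, and cadmium replicate 1 was the cadmium array nearest to the controls. Both traits follow from picking the gene for its nearness to the profile of Ogt. The cadmium arrays lay below the background bound, so the size of this change is uncertain.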
